A study of Drosophila melanogaster with 9 samples.

Results

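Stage 10 follicles of EcRts females were compared with stage 8 follicles of wild-type females of Drosophila melanogaster. EcRts females carry a temperature-sensitive mutation of the ecdysone receptor gene EcR. The labels assign 3 libraries to each of these groups, so the comparison uses 6 of the 9 libraries of the series, and the other 3, wild-type stage 10, give the second wild-type stage. The question was which parts of the change from stage 8 to stage 10 still ran with an impaired receptor, and which genes lay outside both wild-type stages. Every library was made from poly(A)-selected RNA of 100 dissected follicles. The labels give an age of 6 to 14 days and the strain name Oregon R for all 9, although the growth protocol states a minimum of 4 days. EcRts females were moved 2 days after eclosion to a temperature at which the receptor fails, while the growth protocol keeps females at 25 °C. The sources used here give neither that restrictive temperature nor the EcR alleles, nor whether the libraries of a group came from separate females. Genotype and temperature therefore differ together between EcRts and wild-type follicles and cannot be told apart. The p-values measure only the spread between these samples, which may be technical.

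A Drosophila follicle is an oocyte joined to nurse cells and wrapped in a single-layered somatic epithelium. During stage 8 the epithelium has stopped dividing and the oocyte starts to take up yolk. By stage 10 the follicle cells over the oocyte secrete the vitelline membrane, the inner layer of the eggshell, and the chorion layers follow. Nurse cells make and store the mRNA and protein that the embryo will use, and transfer their contents to the oocyte soon after. Ecdysone acts through a receptor made of EcR and its partner usp, which bind DNA together, and in the ovary this hormone is known for its part in mid-oogenesis survival, follicle cell differentiation and lipid uptake.

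Values are deposited FPKM, fragments per kilobase of transcript scaled to mapped depth. The totals implied by the deposited confidence limits were 27160000 to 33270000 fragments in EcRts libraries, 17460000 to 21340000 in wild-type stage 10 and 18600000 to 21750000 in wild-type stage 8, so low values are better resolved in EcRts libraries. Of 15602 listed genes, 8238 reached 1 FPKM in at least 3 of the 9 libraries with a usable estimate in all of them, and these were tested on log2(FPKM + 1) with limma. Noncoding genes on unplaced or heterochromatic scaffolds, 194 in number, took 28% to 31.5% of the summed FPKM in EcRts libraries, 9.61% to 11.3% in wild-type stage 10 and 17.7% to 21.9% in wild-type stage 8, and the FPKM of the other genes share what remains. The follicle label held against its markers. The germline genes vas and osk and the oocyte yolk receptor gene yl were above 100 FPKM in all 9 libraries, and the eggshell genes Vm26Aa, Vm26Ab and Cp36 above 300 FPKM. The border cell regulator slbo stayed low, at 1.07, 1.13 and 1.14 FPKM in EcRts follicles, 0.726, 0.747 and 0.691 in wild-type stage 10 and 1.66, 1.5 and 1.43 in wild-type stage 8.

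EcR mRNA was present in all 9 libraries at about 20 FPKM. EcR (FBgn0000546, chromosome 2R, 1975378 to 2056592 in dm3) had 21.2, 19.9 and 20.8 FPKM in EcRts stage 10 follicles, 20.3, 22.6 and 20.1 in wild-type stage 10 and 19.0, 19.9 and 19.4 in wild-type stage 8. The ranges of EcRts and wild-type stage 8 touched, and the difference of 0.08 on the log2 scale did not pass (adjusted p = 0.23). It was -0.03 and -0.09 with median-of-ratios scaling and quantile normalization, and passed at 0.21 with scaling to protein-coding genes (adjusted p = 0.0188). The partner gene usp had 59.2, 60.2 and 54.8 FPKM in EcRts follicles against 42.0, 41.5 and 41.1 in wild-type stage 8 and rose by 0.47 (adjusted p = 0.000339), with all EcRts libraries above all stage 8 libraries.

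Of the 8238 tested genes, 3280 (39.8%) were higher and 1782 (21.6%) lower in EcRts stage 10 than in wild-type stage 8 at an adjusted p under 0.05. Beyond 2-fold, 454 (5.51%) were higher and 215 (2.61%) lower. From wild-type stage 8 to wild-type stage 10, measured against the same stage 8 libraries, 4054 genes (49.2%) were higher and 1557 (18.9%) lower, 7.21% and 2.34% of the tested genes by at least 2-fold. Over all tested genes the median change was 0.11 for EcRts stage 10 and 0.20 for wild-type stage 10, each against wild-type stage 8, so changes of that size are those of the typical gene. A gene is called above or below both wild-type stages where its differences from both passed in 1 direction, which held for 470 genes (5.71%) above and 682 (8.28%) below. Further, 1175 genes (14.3%) lay above wild-type stage 8 and below wild-type stage 10, here called between the stages, and 117 (1.42%) the other way round. These shares depend on the scaling. Over the other scalings the share above both ran from 3.86% to 15.5%, that below both from 3.33% to 12.9% and that between the stages from 5.46% to 27.7%, and the median difference of EcRts from wild-type stage 10 from -0.29 to 0.07 (-0.12 as deposited). On the deposited FPKM, higher genes made up 64.8% of the calls. That share was 50.8% after median-of-ratios scaling, 50.5% after quantile normalization and 76.4% after scaling to protein-coding genes. It was 78.6% when scaffold noncoding genes were left out of the scaling. The median change of all genes in EcRts stage 10 ran from 0.00 to 0.26. In follicle RNA, fewer cells of a type and less RNA per cell cannot be told apart.

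The genes with the steepest rise from wild-type stage 8 to wild-type stage 10 were also higher in EcRts stage 10 than in wild-type stage 8, at levels mostly short of wild-type stage 10. All 10 rose, and 8 of the 10 were lower than in wild-type stage 10. These genes were chosen for high wild-type stage 10 and low stage 8 values, which enter both comparisons, so these counts are a description. Fcp3C, which codes for a follicle cell protein, had 172, 116 and 173 FPKM in EcRts follicles, 382, 547 and 445 in wild-type stage 10 and 23, 22.1 and 8.60 in wild-type stage 8. The 3 groups did not overlap, and Fcp3C rose by 3.12 ± 0.35 (SE) over stage 8 (adjusted p = 0.000164) and lay 1.58 below wild-type stage 10 (adjusted p = 0.00851). Obp19c, of the odorant-binding protein family, showed the same order, with 153, 165 and 209 FPKM in EcRts follicles, 512, 465 and 502 in wild-type stage 10 and 36.3, 36.5 and 23.4 in wild-type stage 8. CG10407, now called Jhbp5 and related to insect juvenile hormone-binding proteins, had 184, 143 and 199.7 FPKM in EcRts follicles, 440.3, 547 and 518 in wild-type stage 10 and 35.8, 38.7 and 26.8 in wild-type stage 8. CG9990, now called snu, codes for an ABC transporter known for the barrier function of the fly cuticle. It had 15.6, 12.9 and 18.2 FPKM in EcRts follicles, 34.1, 41.8 and 39.9 in wild-type stage 10 and 1.84, 2.21 and 1.01 in wild-type stage 8. These 3 genes rose by 2.43, 2.35 and 2.64 over stage 8 (adjusted p = 2.86e-05, 2.49e-05 and 2.47e-05).

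Among genes known by number only, CG14187 had 175, 117 and 161 FPKM in EcRts follicles, 316, 409.9 and 349 in wild-type stage 10 and 17.4, 17.2 and 8.64 in wild-type stage 8 (3.34, adjusted p = 3.81e-05). The neighbours CG42821 and CG42822 on chromosome 3R rose by 2.63 and 2.97 over stage 8 (adjusted p = 0.000491 and 4.86e-05). CG31661 stood closest to stage 8, with 10.6, 22.3 and 24.0 FPKM in EcRts follicles, 90.2, 62.0 and 114 in wild-type stage 10 and 6.92, 3.73 and 2.55 in wild-type stage 8. It rose by 1.89 (adjusted p = 0.00344) and lay 2.21 below wild-type stage 10 (adjusted p = 0.00321). For CG14309 and CG34166 the shortfall against wild-type stage 10 did not pass (-0.93 and -1.17, adjusted p = 0.0523 and 0.112). CG34166 varied among EcRts libraries, at 30.1, 5.05 and 10.4 FPKM, and its rise of 2.80 over stage 8 became 2.16 without EcRts replicate 1. EcRts and wild-type stage 10 libraries were compared with the same stage 8 libraries, so the changes of both groups are not independent.

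**Figure D1:**
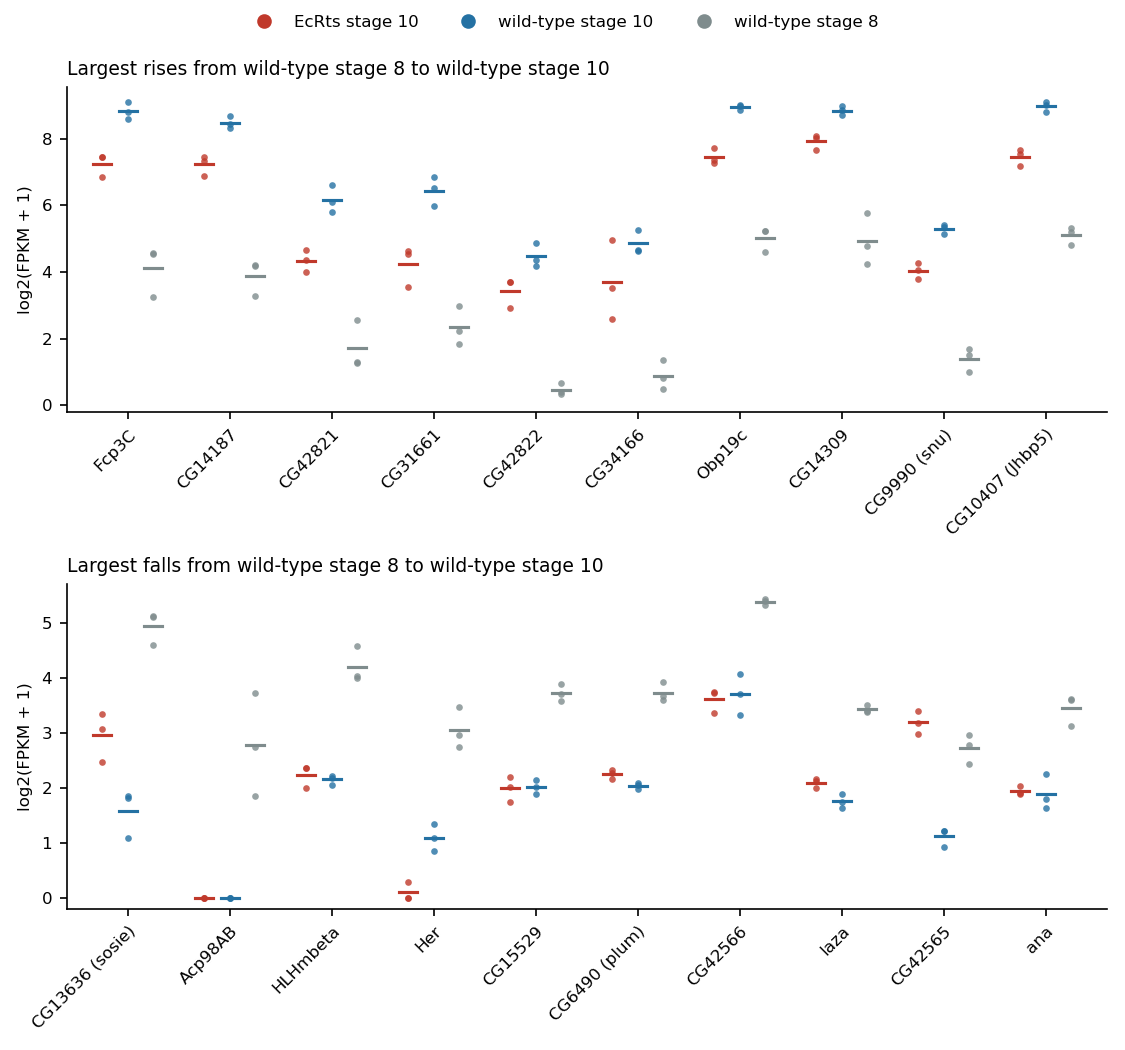
The 10 genes with the largest rise (upper panel) and the 10 with the largest fall (lower panel) from wild-type stage 8 to wild-type stage 10, on a log2(FPKM + 1) axis. Points are libraries and bars are means of 3 libraries, for EcRts stage 10, wild-type stage 10 and wild-type stage 8. EcRts points of the upper panel sit above wild-type stage 8, and in the lower panel 9 of 10 genes are lower in EcRts than in wild-type stage 8, CG42565 being the exception.

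The genes with the largest wild-type falls were mostly lower in EcRts follicles too. Against wild-type stage 8, 9 of the 10 fell, and against wild-type stage 10, 3 were higher and 1 was lower. These counts too describe genes chosen on the wild-type values, and nothing is read from them against the 9.93% and 33.8% of all tested genes that were higher and lower than wild-type stage 10. HLHmbeta, an Enhancer of split gene that Notch signalling turns on, had 3.02, 4.16 and 4.13 FPKM in EcRts follicles, 3.64, 3.56 and 3.17 in wild-type stage 10 and 15.4, 23.1 and 14.9 in wild-type stage 8. It fell by 1.96 against stage 8 (adjusted p = 5.64e-05), and its difference of 0.09 from wild-type stage 10 did not pass (adjusted p = 0.695). Her, a relative in the same transcription factor family, was listed at 0 in EcRts replicates 1 and 2 and at 0.225 FPKM in replicate 3, against 1.13, 0.797 and 1.52 FPKM in wild-type stage 10 and 10.1, 5.68 and 6.84 in wild-type stage 8. Her lay below both wild-type stages, although its difference from wild-type stage 10 (-0.99, adjusted p = 0.00746) was lost with a pseudocount of 5 (adjusted p = 0.0883). The gene plum, listed as CG6490 and coding for an immunoglobulin-family receptor studied in neurons, had 3.48, 4.04 and 3.83 FPKM in EcRts follicles, 3.27, 2.96 and 3.15 in wild-type stage 10 and 11.2, 14.2 and 11.8 in wild-type stage 8. CG15529, CG42566 and ana, which codes for a glycoprotein secreted by larval glia, fell by 1.74, 1.78 and 1.51 (adjusted p = 3.81e-05, 0.000108 and 0.000265). The short gene Acp98AB was listed at 0 in all EcRts and all wild-type stage 10 libraries and at 2.60, 12.3 and 5.74 in wild-type stage 8.

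The wild-type fallers sosie, CG42565 and laza stood higher in EcRts follicles than in wild-type stage 10. The gene sosie, listed as CG13636 and needed for an ordered follicle epithelium, had 9.22, 4.54 and 7.41 FPKM in EcRts follicles, 2.51, 2.61 and 1.13 in wild-type stage 10 and 23.4, 34.2 and 33.8 in wild-type stage 8. It fell by 1.99 against stage 8 (adjusted p = 0.000532) and was 1.38 above wild-type stage 10 (adjusted p = 0.00616). CG42565 had 9.64, 6.96 and 8.09 FPKM in EcRts follicles, 1.32, 1.32 and 0.899 in wild-type stage 10 and 4.39, 6.82 and 5.92 in wild-type stage 8. It was above wild-type stage 10 by 2.08 (adjusted p = 0.000118). Its neighbour CG42566, also named above, fell with the wild type. The excess of CG42565 over stage 8 (0.47, adjusted p = 0.0393) was lost in several settings, among them quantile normalization (adjusted p = 0.187) and the fits without EcRts replicate 1 (0.127) or 3 (0.0845), wild-type stage 8 replicate 1 (0.117) or 3 (0.0677) and wild-type stage 10 replicate 1 (0.052) or 2 (0.0507). The lipid phosphatase gene laza fell by 1.34 against stage 8 (adjusted p = 2.08e-05) and was 0.33 above wild-type stage 10 (adjusted p = 0.0188), a call lost in 5 settings, among them the fits without EcRts replicate 2 (adjusted p = 0.0558) or 3 (0.0641) and without wild-type stage 10 replicate 2 (0.0519).

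The largest rises of EcRts stage 10 over wild-type stage 8 held both stage genes and genes that wild-type follicles barely used at either stage. The vitelline membrane gene Vm26Ac had 318, 210.4 and 213 FPKM in EcRts follicles, 263, 288 and 265 in wild-type stage 10 and 44.5, 21.2 and 24.5 in wild-type stage 8. It rose by 3.04 (adjusted p = 5.7e-05). The gene listed as pncr008:3L, annotated today as the protein-coding gene CG33946, had 57.7, 51.1 and 48.9 FPKM in EcRts follicles, 48.4, 44.8 and 44.7 in wild-type stage 10 and 3.90, 2.35 and 4.31 in wild-type stage 8. It rose by 3.59 (adjusted p = 6.03e-06). EcRts and wild-type stage 10 lay together for both genes, with differences of -0.16 and 0.19 that did not pass (adjusted p = 0.64 and 0.363). Tsf1, which codes for transferrin, the iron carrier of the hemolymph, varied most, at 38.8, 3.69 and 14.5 FPKM in EcRts follicles, 2.70, 1.76 and 12.1 in wild-type stage 10 and 0.417, 0.271 and 0.510 in wild-type stage 8. Its rise of 3.35 (adjusted p = 0.00691) became 2.61 without EcRts replicate 1 and 4.15 without EcRts replicate 2, and its difference from wild-type stage 10 did not pass (1.48, adjusted p = 0.166). CG4476, CG31928 and CG11034 belong to the genes above both stages, and most of the largest falls to the heat shock genes, both described further on.

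On the deposited FPKM, eggshell genes rose in EcRts follicles, the inner layer to about its wild-type stage 10 level and the outer layer to less. Of the 12 tested vitelline membrane genes, 9 rose and 3 fell against wild-type stage 8, where 39.8% and 21.6% of all tested genes did. The median change of the 12 was 1.54, and the same 12 had a median of 1.57 in wild-type stage 10. Only 1 of the 12, Vm32E, differed from wild-type stage 10 on the deposited FPKM. With quantile normalization 3 were lower (median -0.34), and with scaling that leaves out eggshell and yolk genes 4 were (median -0.30). None passed with median-of-ratios scaling or scaling to protein-coding genes. In a limma fit to the compared groups alone, Femcoat and dec also passed (-1.26 and -0.47, adjusted p = 0.0138 and 0.022). Vm32E had 2834, 2274 and 2427 FPKM in EcRts follicles, 4250.5, 4647 and 4073 in wild-type stage 10 and 874, 436 and 421 in wild-type stage 8. Its rise of 2.20 (adjusted p = 0.000194) stayed 0.79 short of wild-type stage 10 (adjusted p = 0.0374). That shortfall was lost on leaving out any 1 EcRts or wild-type stage 10 library (adjusted p up to 0.102), with median-of-ratios scaling (0.0658) and with scaling to protein-coding genes (0.106). The eggshell protein gene dec had 1805, 1408 and 1486 FPKM in EcRts follicles, 2122, 2383 and 1973 in wild-type stage 10 and 601, 306 and 238 in wild-type stage 8. It rose by 2.14 (adjusted p = 0.000475). The genes that fell were clos, fs(1)N and fs(1)M3, known for eggshell assembly and for terminal patterning cues held there (-0.98, -0.56 and -0.57, adjusted p = 2.86e-05, 0.000282 and 0.000172). Femcoat rose by 2.18 (adjusted p = 0.0245), a call lost without EcRts replicate 1 (adjusted p = 0.0532) or 2 (0.0741), and its change became 1.29 without wild-type stage 8 replicate 1 and 2.82 without replicate 2.

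Chorion genes, for the outer eggshell, rose in 8 of 9 cases, where 39.8% of all tested genes did, and fell in 0 against wild-type stage 8 (7 rose with median-of-ratios scaling or quantile normalization). Their median change was 1.58 in EcRts stage 10 and 3.07 in wild-type stage 10. Of the 9, 6 were higher than wild-type stage 8 and lower than wild-type stage 10, where 14.3% of all tested genes were. Cp7Fc, in the chorion cluster on chromosome X, had 256, 270.0 and 417 FPKM in EcRts follicles, 1077, 954 and 1093 in wild-type stage 10 and 126, 91.5 and 64.0 in wild-type stage 8. It rose by 1.75 (adjusted p = 0.000611) and lay 1.76 below wild-type stage 10 (adjusted p = 0.00137), with no overlap among the 3 groups. Cp7Fb had 126, 152 and 202 FPKM in EcRts follicles, 444, 421 and 479 in wild-type stage 10 and 44.4, 35.4 and 21 in wild-type stage 8, also in 3 separate ranges (2.25, adjusted p = 0.000192). On chromosome 3L, Cp19 had 464, 651 and 494 FPKM in EcRts follicles, 1744, 2314 and 1392 in wild-type stage 10 and 59.1, 262 and 262 in wild-type stage 8. Stage 8 replicate 1 was the low library for Cp19 and Cp16, whose rises of 1.72 and 2.62 (adjusted p = 0.0221 and 0.0138) became 1.01 and 1.67 without it, and the Cp19 call was lost without EcRts replicate 2 (adjusted p = 0.0646). Cp18 did not pass, at 347, 618 and 38.2 FPKM in EcRts follicles against 22.4, 146 and 120.3 in wild-type stage 8 (1.45, adjusted p = 0.293). Of 9 tested late follicle cell products, 8 rose on the deposited FPKM (6 with median-of-ratios scaling, 5 without EcRts replicate 1). Their median was 1.42 in EcRts stage 10 and 2.93 in wild-type stage 10. Of these 9, 7 lay between both wild-type stages, where 14.3% of all tested genes did.

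Yolk genes changed less. The yolk protein genes Yp1 and Yp3 rose by 0.56 and 0.73 over wild-type stage 8 (adjusted p = 0.0199 and 0.000714), and Yp2 did not pass (0.05, adjusted p = 0.717). Yp3 had 2019, 1844 and 1700.4 FPKM in EcRts follicles, 1488, 1416 and 1357 in wild-type stage 10 and 1284, 1134 and 952 in wild-type stage 8. Its excess over wild-type stage 10 (0.38, adjusted p = 0.0244) was lost without EcRts replicate 1 or 2 or wild-type stage 10 replicate 2 or 3 (adjusted p up to 0.0766), and with scaling that leaves out eggshell and yolk genes (0.128). The Yp1 call was lost without EcRts replicate 2 (adjusted p = 0.063) and without wild-type stage 8 replicate 2 (0.065) or 3 (0.0655). Receptor genes moved apart. The yolk receptor gene yl had 387, 386 and 355 FPKM in EcRts follicles, 366, 388 and 327 in wild-type stage 10 and 496, 505 and 544 in wild-type stage 8 (-0.45, adjusted p = 0.000817), and the lipophorin receptor gene LpR1 fell by 0.60 (adjusted p = 9.82e-05). The gene mgl, of the LDL receptor family, had 11.3, 8.69 and 9.72 FPKM in EcRts follicles, 25.9, 24.5 and 22.5 in wild-type stage 10 and 8.00, 6.35 and 4.77 in wild-type stage 8. Its rise of 0.58 (adjusted p = 0.0131) left it 1.22 short of wild-type stage 10 (adjusted p = 0.000822). Over the 8 tested genes of yolk and lipoprotein uptake, 3 rose and 3 fell, where 39.8% and 21.6% of all tested genes did. The median of the 8 was 0.11, equal to that of all genes, and -0.01 and -0.04 with median-of-ratios scaling and quantile normalization.

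Genes of fatty acid synthesis and its regulator SREBP split. Of 20 tested, 7 rose and 9 fell against wild-type stage 8 (8 and 7 with scaling to protein-coding genes). The wild type had 12 higher and 3 lower at stage 10, where 49.2% and 18.9% of all tested genes were. These wild-type counts were 5 and 8 with median-of-ratios scaling and 6 and 7 with quantile normalization. Among all tested genes, 39.8% rose and 21.6% fell in EcRts stage 10. The genes that fell led with AcCoAS, which makes acetyl-CoA from acetate. AcCoAS had 14.5, 14.0 and 15.1 FPKM in EcRts follicles, 46.5, 49.3 and 45.5 in wild-type stage 10 and 52.6, 51.5 and 54.8 in wild-type stage 8. EcRts stood far below wild-type values that lay close together at both stages (-1.80, adjusted p = 6.41e-07, and -1.63, adjusted p = 1.33e-06). SREBP itself, listed as HLH106, was below both stages, with 42.8, 40.5 and 40.2 FPKM in EcRts follicles, 55.2, 57.8 and 51.6 in wild-type stage 10 and 59.8, 55.8 and 60.4 in wild-type stage 8. So was SCAP, which carries SREBP to its activating proteases, with 9.31, 8.71 and 9.22 FPKM in EcRts follicles, 12.8, 14.2 and 12.5 in wild-type stage 10 and 16.1, 17.3 and 16.2 in wild-type stage 8. The fatty acid synthase gene FASN1, listed as CG3523, and the acetyl-CoA carboxylase gene ACC fell by 0.62 and 0.44 (adjusted p = 0.00269 and 0.00173). Among the genes that rose was the fatty acid transporter gene Fatp, at 19.3, 17.8 and 19.8 FPKM in EcRts follicles, 19.8, 20.4 and 20.6 in wild-type stage 10 and 9.78, 8.72 and 7.78 in wild-type stage 8. It rose by 1.04 (adjusted p = 3.15e-05). Agpat1, listed as CG3812 and acting in glycerolipid assembly, rose by 1.35 (adjusted p = 7.45e-06). The acyl-CoA synthetase gene bgm rose by 0.90 (adjusted p = 6.91e-05), at 80.7, 80.3 and 78.3 FPKM in EcRts follicles, 62.4, 61.9 and 58.6 in wild-type stage 10 and 48.6, 37.6 and 41.0 in wild-type stage 8.

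The lipid droplet genes Lsd-2 and Jabba had higher mRNA levels in EcRts stage 10 than in wild-type stage 8. Of 9 tested droplet and lipase genes, 5 rose and 1 fell, where 39.8% and 21.6% of all tested genes did, with a median of 0.33 in EcRts stage 10 and 0.58 in wild-type stage 10. The perilipin gene Lsd-2 had 382, 376 and 386 FPKM in EcRts follicles, 360.5, 411 and 352 in wild-type stage 10 and 231, 211 and 209 in wild-type stage 8. Jabba, listed as CG42351, anchors histones on droplets. It had 588, 569.5 and 599 FPKM in EcRts follicles, 560.5, 594 and 529.9 in wild-type stage 10 and 335, 345 and 329 in wild-type stage 8. Both rose over stage 8 (0.81 and 0.80, adjusted p = 4.25e-05 and 1.7e-05), and neither differed past the threshold from wild-type stage 10 (adjusted p = 0.748 and 0.339) on the deposited FPKM. With scaling to protein-coding genes they were 0.23 and 0.26 above wild-type stage 10 (adjusted p = 0.0332 and 0.0073). The triglyceride lipase gene bmm fell by 0.38 (adjusted p = 0.000929).

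Cell cycle, egg activation and proteasome genes, much of whose mRNA the oocyte stores for the embryo, rose in most members. Of 21 mitotic cycle genes, 20 rose and 0 fell (median 0.64), and of 30 tested genes for DNA replication and the endocycle, 25 rose (median 0.46) and 1 fell. Among all tested genes, 39.8% rose and 21.6% fell. Of 32 proteasome genes 31 rose and 0 fell (median 0.38). All 10 egg activation genes rose (8 with median-of-ratios scaling, median 0.37), and of 20 genes that act on actin during nurse cell dumping, 13 rose (median 0.26) and 0 fell. In wild-type stage 10 the medians of these lists were higher, at 0.84, 0.72, 0.57, 0.53 and 0.41 in the same order, and 12 of the 21, 17 of the 30, 14 of the 32, 5 of the 10 and 7 of the 20 genes lay between both wild-type stages, where 14.3% of all tested genes did. This gap depended on the scaling. With scaling to protein-coding genes the medians were 0.78, 0.59, 0.51, 0.50 and 0.39 in EcRts stage 10 and 0.77, 0.66, 0.51, 0.46 and 0.34 in wild-type stage 10, and 6, 8, 1, 0 and 1 genes lay between the stages, where 5.46% of all tested genes did. The securin gene pim had 57.9, 57.2 and 66.4 FPKM in EcRts follicles, 88.6, 90.9 and 100.4 in wild-type stage 10 and 18.8, 14.6 and 16.1 in wild-type stage 8 (1.82, adjusted p = 1.27e-05). The gene twe, the meiotic Cdc25 phosphatase gene, had 41.8, 34.4 and 39.4 FPKM in EcRts follicles, 44.8, 47.4 and 45.9 in wild-type stage 10 and 17.1, 16.2 and 15.3 in wild-type stage 8 (1.20, adjusted p = 1.77e-05). Both genes showed 3 separate ranges, although the difference of twe from wild-type stage 10 did not pass with median-of-ratios scaling (adjusted p = 0.172) or with scaling to protein-coding genes (0.613), nor without EcRts replicate 2 (0.0572) or wild-type stage 10 replicate 2 (0.0717) or 3 (0.057).

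Origin recognition genes belonged to the replication group. Orc1 had 30.7, 28.3 and 30.1 FPKM in EcRts follicles, 35.0, 40.5 and 35.1 in wild-type stage 10 and 16.0, 15.4 and 14.0 in wild-type stage 8 (0.93, adjusted p = 3.81e-05). Orc2 had 17.5, 14.8 and 16.8 FPKM in EcRts follicles, 26.1, 25.7 and 24.4 in wild-type stage 10 and 9.48, 8.34 and 8.44 in wild-type stage 8 (0.83, adjusted p = 6.16e-05). Among egg activation genes the Polo inhibitor mtrm had 367, 345 and 372 FPKM in EcRts follicles, 353, 389 and 394 in wild-type stage 10 and 194, 198 and 185 in wild-type stage 8 (0.91, adjusted p = 1.69e-05). The kinase gene png, which releases translation of stored mRNA at egg activation, had 46.5, 41.7 and 43.1 FPKM in EcRts follicles, 34.8, 39.7 and 34.2 in wild-type stage 10 and 25.6, 23.5 and 25.9 in wild-type stage 8 (0.78, adjusted p = 6.53e-05). The actin regulators cib, twf and qua rose by 0.64, 0.61 and 0.52 (adjusted p = 2.47e-05, 5.81e-05 and 5.87e-05), and the proteasome genes Rpt6 (listed as Pros45), Rpn3 and Prosalpha1 by 0.54, 0.53 and 0.51 (adjusted p = 0.00184, 0.000633 and 0.000894).

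Localized maternal mRNAs were called in both directions, at shares near those of all genes. Of 28 tested, 11 rose and 8 fell (11 and 10 with median-of-ratios scaling), where 39.8% and 21.6% of all tested genes did. In wild-type stage 10, 16 were higher and 7 lower (10 and 11 with median-of-ratios scaling), where 49.2% and 18.9% of all tested genes were. The posterior determinant nos had 165, 165 and 174 FPKM in EcRts follicles, 156.4, 182 and 165 in wild-type stage 10 and 88.4, 84.4 and 88.7 in wild-type stage 8 (0.94, adjusted p = 1.77e-05). The translation regulator gene orb had 144, 156.3 and 155 FPKM in EcRts follicles, 132, 144 and 124 in wild-type stage 10 and 276, 298 and 314 in wild-type stage 8 (-0.96, adjusted p = 2.66e-05). The gene grk, for the oocyte ligand of the EGF receptor, had 12.0, 13.2 and 13.6 FPKM in EcRts follicles, 11.4, 12.8 and 10.8 in wild-type stage 10 and 23.1, 24.0 and 25.1 in wild-type stage 8 (-0.84, adjusted p = 6.15e-05). For these 3 genes the EcRts values lay apart from all stage 8 libraries, and the differences from wild-type stage 10 did not pass (adjusted p = 0.95, 0.0606 and 0.161) on the deposited FPKM. With scaling to protein-coding genes they were 0.20, 0.38 and 0.33 above wild-type stage 10 (adjusted p = 0.0364, 0.0035 and 0.0108). The oocyte thioredoxin gene dhd rose by 0.73 (adjusted p = 3.18e-05), at 3285, 3269 and 3562 FPKM in EcRts follicles, 2990.4, 2987 and 2850.3 in wild-type stage 10 and 2005, 2117 and 1969 in wild-type stage 8.

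The piRNA pathway, which silences transposons in the germline, had more lower than higher members in EcRts follicles on the deposited FPKM (8 rose and 7 fell when scaffold noncoding genes were left out of the scaling). Of 21 genes, 6 rose and 11 fell (median -0.21, and -0.32 to -0.05 over the scalings). In wild-type stage 10, 10 were higher and 6 lower (median 0.12), where 49.2% and 18.9% of all tested genes were. With median-of-ratios scaling or quantile normalization the wild type had 5 higher and 8 lower. Among all tested genes, 39.8% rose and 21.6% fell in EcRts stage 10. The gene papi, for a scaffold for piRNA processing, had 21, 22.9 and 22.9 FPKM in EcRts follicles, 28.2, 25.6 and 25.3 in wild-type stage 10 and 52.4, 48.6 and 51.1 in wild-type stage 8 (-1.15, adjusted p = 8.57e-06). The gene piwi, for the nuclear effector of the pathway, had 62.2, 69.9 and 67.9 FPKM in EcRts follicles, 73.2, 71.5 and 74.2 in wild-type stage 10 and 95.4, 88.3 and 102 in wild-type stage 8 (-0.51, adjusted p = 0.000262). The gene krimp, for a scaffold of the same granules, went the other way and was above both stages, at 27.5, 25.5 and 28 FPKM in EcRts follicles, 20.4, 19.3 and 20.1 in wild-type stage 10 and 16.3, 16.8 and 17.7 in wild-type stage 8. In all, 8 of the 21 genes were below both wild-type stages and 2 above both, where 8.28% and 5.71% of all tested genes were. With scaling to protein-coding genes 1 was below both and 3 were above both, where 3.39% and 15.5% of all tested genes were.

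Genes that pattern the follicle cells were lower in EcRts stage 10 than in wild-type stage 8 in most cases. Of 27 tested, 16 fell and 4 rose (median -0.37), where 21.6% and 39.8% of all tested genes did, and in wild-type stage 10 the counts were 15 and 5 (median -0.27). The zinc-finger gene peb had 5.35, 6.05 and 5.66 FPKM in EcRts follicles, 6.80, 6.41 and 6.21 in wild-type stage 10 and 11, 12.3 and 11.6 in wild-type stage 8 (-0.92, adjusted p = 2.94e-05). The gene sty, for a feedback inhibitor of EGF receptor signalling, was lower still, with 3.90, 4.20 and 4.41 FPKM in EcRts follicles, 7.28, 5.93 and 6.64 in wild-type stage 10 and 9.20, 10.8 and 8.68 in wild-type stage 8, and lay below both (adjusted p = 8.13e-05 and 0.00326). The protease gene ndl, part of the dorsoventral cue in the eggshell, rose to 96.4, 85.3 and 73.2 FPKM in EcRts follicles, against 78.2, 79.0 and 74.5 in wild-type stage 10 and 48.0, 31.1 and 32.1 in wild-type stage 8 (1.20, adjusted p = 0.000432). Of 16 tested Notch pathway genes 6 rose and 7 fell (7 and 6 with scaling to protein-coding genes), and of 12 for JAK-STAT signalling and border cells 4 rose and 4 fell (2 and 8 with median-of-ratios scaling). Socs36E, a target and inhibitor of JAK-STAT signalling, had 2.21, 1.82 and 2.05 FPKM in EcRts follicles, 3.2, 3.31 and 3.08 in wild-type stage 10 and 6.39, 6.75 and 6.25 in wild-type stage 8 (-1.30, adjusted p = 1.69e-05).

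Most genes of the basement membrane and of follicle elongation fell. Of 14 tested, 10 fell and 2 rose (median -0.50; 7 and 3 with scaling to protein-coding genes), against 7 and 3 in wild-type stage 10 (median -0.45). Among all tested genes, 21.6% fell and 39.8% rose in EcRts stage 10. Cg25C, the collagen IV gene now called Col4a1, had 35.6, 42.1 and 41.2 FPKM in EcRts follicles, 59.9, 43.6 and 49.6 in wild-type stage 10 and 114, 99.9 and 108 in wild-type stage 8 (-1.41, adjusted p = 4.63e-05). The perlecan gene trol had 21.9, 22.5 and 22.1 FPKM in EcRts follicles, 30.4, 24.5 and 27.2 in wild-type stage 10 and 57.3, 52.8 and 51.6 in wild-type stage 8 (-1.24, adjusted p = 1.69e-05). The laminin gene LanB1 and the collagen-binding SPARC gene fell by 1.12 and 1.36 (adjusted p = 4.52e-05 and 0.000113). Of 16 genes of septate and gap junctions, 8 rose and 6 fell (6 and 7 with median-of-ratios scaling or quantile normalization), with ogre, a gap junction gene, down by 0.56 and the septate junction genes pck and nrv1 up by 0.66 and 0.55 (adjusted p = 5.9e-05, 0.000139 and 6.35e-05).

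Ecdysone response genes did not move as a block. Of 21 tested, 8 rose and 7 fell (8 and 10 with median-of-ratios scaling or quantile normalization), where 39.8% and 21.6% of all tested genes did. Of the 21, 4 lay above both wild-type stages and 4 below both, where 5.71% and 8.28% of all tested genes did. Eip74EF, an early gene that ecdysone turns on directly, had 4.94, 4.70 and 5.26 FPKM in EcRts follicles, 10.4, 11.1 and 12.0 in wild-type stage 10 and 3.01, 2.95 and 2.54 in wild-type stage 8. It was 0.64 above stage 8 (adjusted p = 0.000313) and 1.03 below wild-type stage 10 (adjusted p = 0.000113), in 3 ranges that did not overlap. Eip75B, another early gene, had 15.1, 15.1 and 14.1 FPKM in EcRts follicles, 13.7, 15.2 and 13.7 in wild-type stage 10 and 23.9, 28.09 and 23.2 in wild-type stage 8. Its EcRts range overlapped wild-type stage 10 (-0.72 against stage 8, adjusted p = 0.000139). Hr4, a nuclear receptor gene of the ecdysone cascade, was above both stages, with 5.03, 4.06 and 4.45 FPKM in EcRts follicles, 2.13, 2.37 and 1.88 in wild-type stage 10 and 2.44, 1.69 and 1.34 in wild-type stage 8 (adjusted p = 0.000815 and 0.00409). Hr3, listed as Hr46 and acting in the same cascade, rose by 0.62 (adjusted p = 0.0129), with its highest stage 8 library at 4.86 FPKM and its lowest EcRts library at 5.28 FPKM. ImpL2, a secreted insulin-binding protein gene, was below both, at 45.8, 40.4 and 44.9 FPKM in EcRts follicles, 89.3, 94.5 and 75.2 in wild-type stage 10 and 95.4, 69.8 and 93.9 in wild-type stage 8 (-0.96, adjusted p = 0.000452).

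No tested gene of hormone synthesis or juvenile hormone signalling rose with the values as deposited. Of 10 tested ecdysteroid synthesis genes, 4 fell and 0 rose (median -0.15), against 4 and 2 in wild-type stage 10 (median -0.32). Of 7 tested juvenile hormone genes 5 fell and 0 rose (median -0.36), against 6 and 1 in wild-type stage 10 (median -0.30). Among all tested genes, 21.6% fell and 39.8% rose in EcRts stage 10. With scaling to protein-coding genes, 1 gene of each list rose. The hydroxylase gene dib had 0.794, 0.573 and 0.755 FPKM in EcRts follicles, 3.49, 2.58 and 2.27 in wild-type stage 10 and 4.45, 3.44 and 6.28 in wild-type stage 8, below both stages with no overlap (-1.72, adjusted p = 0.000175). The gene phm, which acts in the same pathway, had 2.49, 3.03 and 2.76 FPKM in EcRts follicles, 3.95, 2.77 and 3.22 in wild-type stage 10 and 5.65, 5.66 and 6.10 in wild-type stage 8 (-0.86, adjusted p = 0.000359), and sad fell by 0.52 (adjusted p = 0.000489). The gene gce, for a juvenile hormone receptor, had 2.74, 2.74 and 2.60 FPKM in EcRts follicles, 2.63, 2.19 and 2.44 in wild-type stage 10 and 6.35, 6.55 and 5.32 in wild-type stage 8 (-0.93, adjusted p = 0.000108), and Kr-h1, the transcription factor gene that the hormone induces, fell by 0.96 (adjusted p = 0.00321).

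Genes of sugar and fat use rose in part, and how their counts compared with those of wild-type stage 10 varied with the scaling. Over all tested genes 39.8% rose in EcRts stage 10 and 49.2% in wild-type stage 10, and the difference between the counts was not tested. Glycolysis genes rose in 7 of 12 tested and fell in 2 (median 0.24), against 9 and 1 in wild-type stage 10 (median 0.50). With scaling to protein-coding genes 9 rose and 1 fell, against 9 and 2 in wild-type stage 10. The glyceraldehyde-phosphate dehydrogenase gene Gapdh2 had 1041, 1056 and 1086 FPKM in EcRts follicles, 1159.9, 1222 and 1153 in wild-type stage 10 and 679, 636 and 635 in wild-type stage 8. The hexokinase gene Hex-A was below both stages, at 57.4, 57.8 and 58.5 FPKM in EcRts follicles, 78.3, 81.8 and 74.6 in wild-type stage 10 and 79.2, 81.2 and 85.7 in wild-type stage 8 (-0.49, adjusted p = 6.77e-05). For glycogen and trehalose metabolism, 3 of 11 genes rose and 3 fell (2 and 5 with median-of-ratios scaling, 5 and 2 with scaling to protein-coding genes), where the wild type had 9 higher and 1 lower at stage 10 (7 and 2, and 7 and 1). The trehalase gene Treh was below both stages although it was higher in wild-type stage 10 than at stage 8, with 37.8, 36.4 and 38.4 FPKM in EcRts follicles, 79.8, 70.3 and 73.5 in wild-type stage 10 and 49.8, 49.5 and 49.2 in wild-type stage 8. It lay 0.39 below stage 8 (adjusted p = 0.000294) and 0.97 below wild-type stage 10 (adjusted p = 1.37e-05). Fatty acid oxidation genes rose in 6 of 12 tested and fell in 2 (4 and 4 with median-of-ratios scaling, 8 and 1 with scaling to protein-coding genes), against 10 and 0 in wild-type stage 10 (7 and 2, and 10 and 1, with these scalings). The thiolase gene yip2 had 101, 107 and 104 FPKM in EcRts follicles, 157, 156.1 and 147 in wild-type stage 10 and 89.7, 72.9 and 75.5 in wild-type stage 8.

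No TCA cycle, respiratory chain or mitochondrial genome gene rose with the values as deposited. Of 19 TCA cycle genes 12 fell and 0 rose with the values as deposited (median -0.25, and 6 to 17 fell over the scalings). Of 39 nuclear respiratory chain genes 12 fell and 0 rose with the values as deposited. In that list 3 fell and 2 rose with scaling to protein-coding genes, and 27 fell and 0 rose with median-of-ratios scaling. The medians of these 2 lists in wild-type stage 10 were -0.09 and -0.07. Among all tested genes, 21.6% fell and 39.8% rose in EcRts stage 10 with the values as deposited. Idh3a, listed as l(1)G0156, a subunit of isocitrate dehydrogenase, had 142, 141 and 142 FPKM in EcRts follicles, 149, 147.5 and 131 in wild-type stage 10 and 194, 184 and 197 in wild-type stage 8 (-0.43, adjusted p = 0.000269). The ATP synthase gene ATPsynC, listed as CG1746, had 2136, 2327 and 2193 FPKM in EcRts follicles, 2394, 2366 and 2348 in wild-type stage 10 and 2748, 2690.0 and 2918 in wild-type stage 8. It fell by 0.33 (adjusted p = 0.000931), but was 0.13 higher with quantile normalization (adjusted p = 0.0304). The 13 mRNAs of the mitochondrial genome had a median change of -0.40, with 2 lower and 0 higher than in wild-type stage 8. In wild-type stage 10, 10 were higher than at stage 8 (7 to 12 over the scalings, median 1.02), where 49.2% of all tested genes were. All 13 lay below wild-type stage 10 in EcRts follicles (9 to 13 over the scalings, median -1.27), where 33.8% of all tested genes did. The mRNA mt:ND2 had 21.9, 22.2 and 22.0 FPKM in EcRts follicles, 74.6, 73.6 and 64.6 in wild-type stage 10 and 24.6, 17.6 and 21.8 in wild-type stage 8. The mRNA mt:ND6 had 12.3, 19.1 and 7.26 FPKM in EcRts follicles, 93.3, 69.4 and 89.3 in wild-type stage 10 and 47.3, 33.2 and 37.6 in wild-type stage 8. The change of mt:ND2 from stage 8 did not pass (0.06, adjusted p = 0.681), and mt:ND6 was below both stages (-1.62, adjusted p = 0.00197). Since mitochondrial transcripts carry short poly(A) tails, their share after poly(A) selection also depends on the RNA preparation, whose part was not tested.

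Genes for making ribosomes fell. Of 77 tested ribosomal protein genes, 75 fell and 0 rose (50 fell with quantile normalization), with a median of -0.55 in EcRts stage 10 and -0.42 in wild-type stage 10. Among all tested genes, 21.6% fell and 39.8% rose in EcRts stage 10. Of 22 nucleolar genes of ribosome biogenesis 19 fell and 0 rose (median -0.49), against 20 and 1 in wild-type stage 10 (median -0.43). Fib, the fibrillarin gene of ribosomal RNA methylation, had 140.5, 167 and 149.5 FPKM in EcRts follicles, 138, 120.0 and 125 in wild-type stage 10 and 286, 292 and 301 in wild-type stage 8 (-0.94, adjusted p = 3.46e-05). RpL3 had 1907, 1894 and 1804 FPKM in EcRts follicles, 2193, 2023 and 1916 in wild-type stage 10 and 3268, 3336 and 3519.7 in wild-type stage 8 (-0.85, adjusted p = 2.78e-05). Genes for the vacuolar proton pump also went down, 14 of 17 lower and 0 higher (median -0.26; 9 and 1 with scaling to protein-coding genes), and 9 of the 17 were below both wild-type stages, where 8.28% of all tested genes were. That count was 2 or 3 with median-of-ratios scaling, quantile normalization or scaling to protein-coding genes. Its subunit gene Vha44 had 74.5, 73.9 and 74.1 FPKM in EcRts follicles, 86.1, 83.0 and 82.6 in wild-type stage 10 and 112, 123 and 123 in wild-type stage 8. Its call against wild-type stage 10 and that of the subunit gene Vha26 did not hold on scaling to protein-coding genes (adjusted p = 0.713 and 0.423), on quantile normalization (0.639 and 0.411) or with median-of-ratios scaling (0.454 and 0.114).

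**Figure D2:**
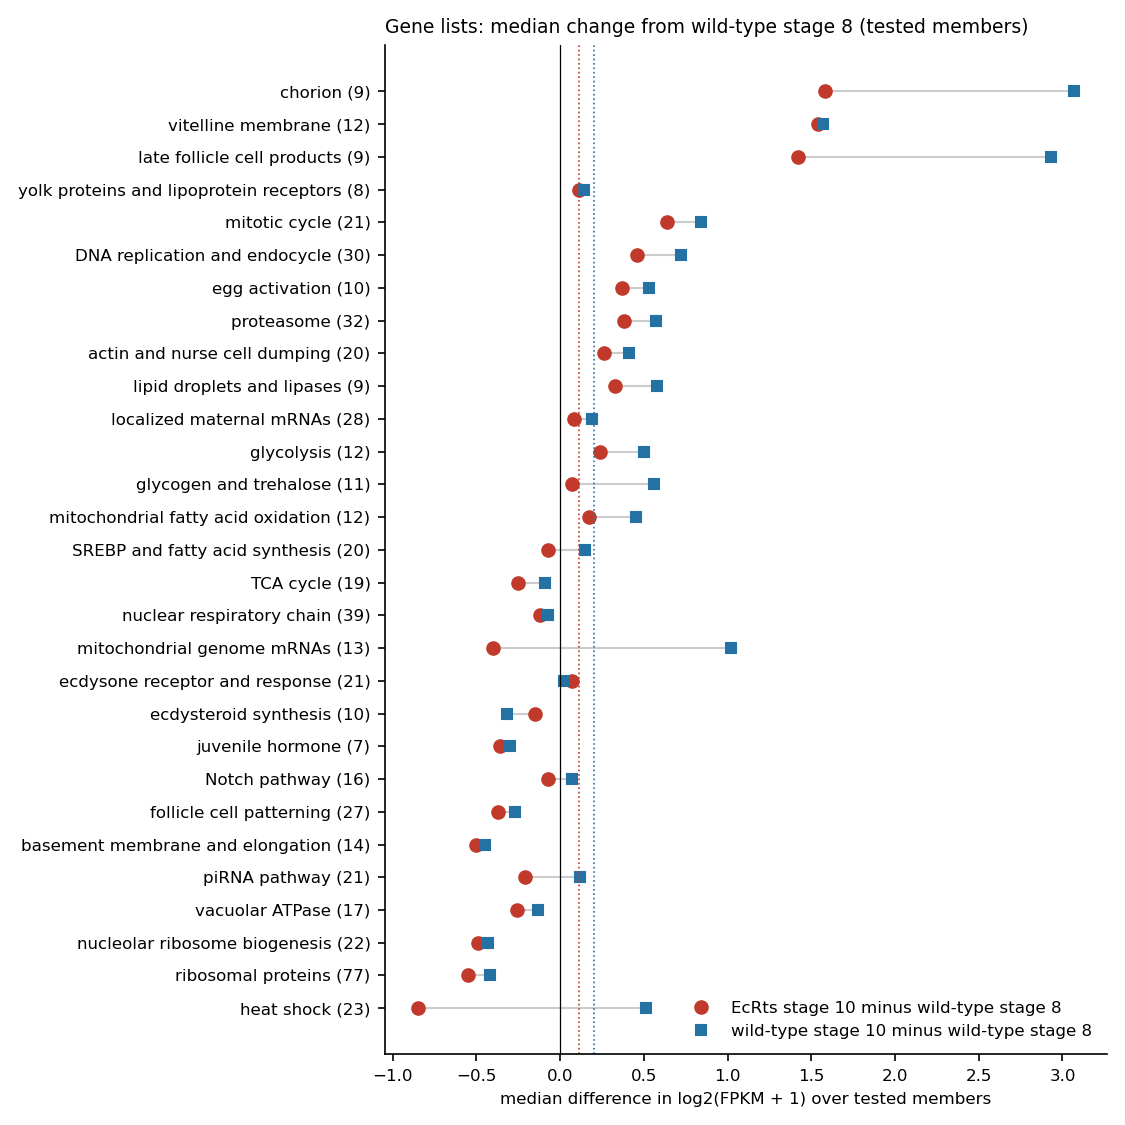
Median difference in log2(FPKM + 1) over the tested members of 29 gene lists (number tested in parentheses), for EcRts stage 10 minus wild-type stage 8 (circles) and wild-type stage 10 minus wild-type stage 8 (squares). Dotted lines mark the medians of all tested genes, 0.11 for EcRts and 0.20 for wild-type stage 10. Both differences use the same stage 8 libraries. The mitochondrial genome (-0.40 and 1.02) and heat shock lists (-0.85 and 0.51) are among those with the medians on opposite sides of 0.

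Genes well outside both wild-type stages were taken as those that also lay at least 2-fold away from each. Of the 8238 tested genes, 150 (1.82%) lay above both stages and 58 (0.704%) below both. Most genes above both were copies of the 5S rRNA gene, 86 of the 98 tested copies, which are near-identical, so that the split of FPKM among them is uncertain. Their summed FPKM was 1393, 705.0 and 989 in EcRts follicles, 239, 225 and 166 in wild-type stage 10 and 534, 233 and 143 in wild-type stage 8. Among the genes above both that were not protein-coding, some lay on unplaced or heterochromatic scaffolds (10 on U and 1 on XHet). Besides the 5S copies, others lay on assembled chromosome arms. The share of scaffold noncoding genes in the libraries is given above. Protein-coding genes made up 39 of those above both and 47 of those below both, which is 0.537% and 0.647% of the 7267 protein-coding genes tested. Both comparisons use the same EcRts libraries.

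**Figure D3:**
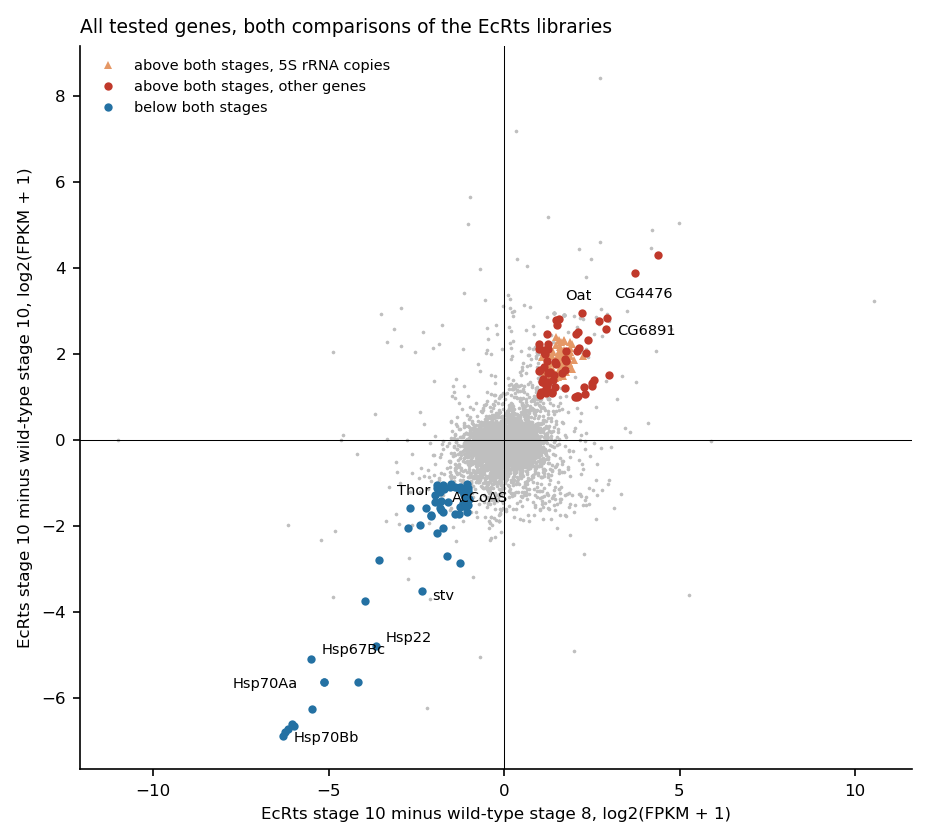
Change of every tested gene in EcRts stage 10 against wild-type stage 8 (horizontal) and against wild-type stage 10 (vertical), both in log2(FPKM + 1). The same EcRts libraries enter both axes, which pulls points toward the diagonal. Coloured points are the 150 genes above both stages, 86 of them 5S rRNA copies drawn as triangles, and the 58 below both. Grey points beyond 1 on both axes did not pass both tests.

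Most of the 10 protein-coding genes furthest above both stages were under 5 FPKM in every wild-type library. CG4476 (FBgn0035969, chromosome 3L, 9204980 to 9208356 in dm3) had 52.4, 48.4 and 49.5 FPKM in EcRts follicles, 1.95, 2.72 and 2.78 in wild-type stage 10 and 3.23, 1.88 and 3.69 in wild-type stage 8. Every EcRts library was over 10 times every wild-type library, and the gene rose by 3.73 ± 0.18 over stage 8 and 3.88 over wild-type stage 10 (adjusted p = 7.45e-06 and 8.2e-06). CG11034 (chromosome 2L, 5805395 to 5808858) had 8.94, 7 and 7.84 FPKM in EcRts follicles, 0.235, 0.219 and 0.271 in wild-type stage 10 and 0.167, 0.176 and 0.123 in wild-type stage 8 (2.94, adjusted p = 4.41e-06). Obp46a, of the odorant-binding protein family, had 4.94, 7.82 and 7.16 FPKM in EcRts follicles, 0.197, 0 and 0.114 in wild-type stage 10 and 0.403, 0 and 0.111 in wild-type stage 8 (2.70, adjusted p = 2.78e-05). The wild-type values of CG11034 and Obp46a were at or near 0 at both stages, so both genes passed the filter through the EcRts libraries alone.

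CG6891 (chromosome X, 18669263 to 18675378) had 32.8, 29.5 and 34.8 FPKM in EcRts follicles, 4.12, 4.78 and 4.70 in wild-type stage 10 and 4.52, 3.37 and 2.58 in wild-type stage 8 (2.91, adjusted p = 8.57e-06). Oat, the ornithine aminotransferase gene, had 23.4, 19.3 and 21.8 FPKM in EcRts follicles, 2.17, 1.51 and 2.03 in wild-type stage 10 and 3.94, 4.05 and 3.41 in wild-type stage 8 (2.23, adjusted p = 8.57e-06). Wild-type Oat was lower at stage 10 than at stage 8, so the EcRts excess was larger against wild-type stage 10 (2.96, adjusted p = 2.88e-06). Arc1, which codes for a Gag-like protein that forms capsids around RNA, had 38.6, 12.6 and 21.6 FPKM in EcRts follicles, 3.11, 2.84 and 3.21 in wild-type stage 10 and 4.65, 3.98 and 4.36 in wild-type stage 8. EcRts replicate 1 was high and replicate 2 low (2.11, adjusted p = 0.000737). The cytochrome P450 gene Cyp6a22 and the actin-binding gene Unc-115a rose by 1.76 and 1.48 over stage 8 (adjusted p = 1.62e-05 and 2.57e-05). CG31928 is the only one of the 10 that wild-type follicles also raised with stage, at 10.5, 10.2 and 12.7 FPKM in EcRts follicles, 3.06, 3.01 and 3.77 in wild-type stage 10 and 0.310, 0.557 and 0.764 in wild-type stage 8.

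TepII is the last of these 10 genes, and Ilp8 also lay at least 2-fold above both stages. TepII, a thioester protein gene of the fly's innate defence, had 10.2, 6.03 and 6.91 FPKM in EcRts follicles, 1.47, 1.33 and 1.53 in wild-type stage 10 and 2.03, 1.39 and 3.24 in wild-type stage 8 (1.45, adjusted p = 0.000959). Ilp8, a relaxin-like peptide gene known in follicle cells of mature eggs, had 19.9, 12.9 and 24.1 FPKM in EcRts follicles, 6.12, 5.92 and 7 in wild-type stage 10 and 4.18, 3.85 and 0.396 in wild-type stage 8. Its rise of 2.56 over stage 8 (adjusted p = 0.00198) became 1.95 without stage 8 replicate 3, the low library, and its excess over wild-type stage 10 was 1.40 (adjusted p = 0.0427). The second call was lost without EcRts replicate 1 (adjusted p = 0.1) or 3 (0.123) and without each of the wild-type stage 10 libraries (up to 0.101), and also with a pseudocount of 0.1 (0.131), without the filter (0.0783) and with the replicate block (0.07). Of the 39 protein-coding genes, 6 are near-identical His2B histone copies, among which the split of FPKM is uncertain. PH4alphaEFB, a collagen prolyl hydroxylase gene, and Idgf2, a chitinase-like growth factor gene, are further members. PH4alphaEFB averaged 74.3 ± 9.21 FPKM in EcRts follicles, 35.9 ± 1.46 FPKM in wild-type stage 10 and 17.2 ± 5.31 FPKM in wild-type stage 8 (SD, n = 3 each). Idgf2 averaged 42.2 ± 5.40 FPKM in EcRts follicles, 15.1 ± 1.18 FPKM in wild-type stage 10 and 20.4 ± 10.3 FPKM in wild-type stage 8 (SD, n = 3 each).

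**Figure D4:**
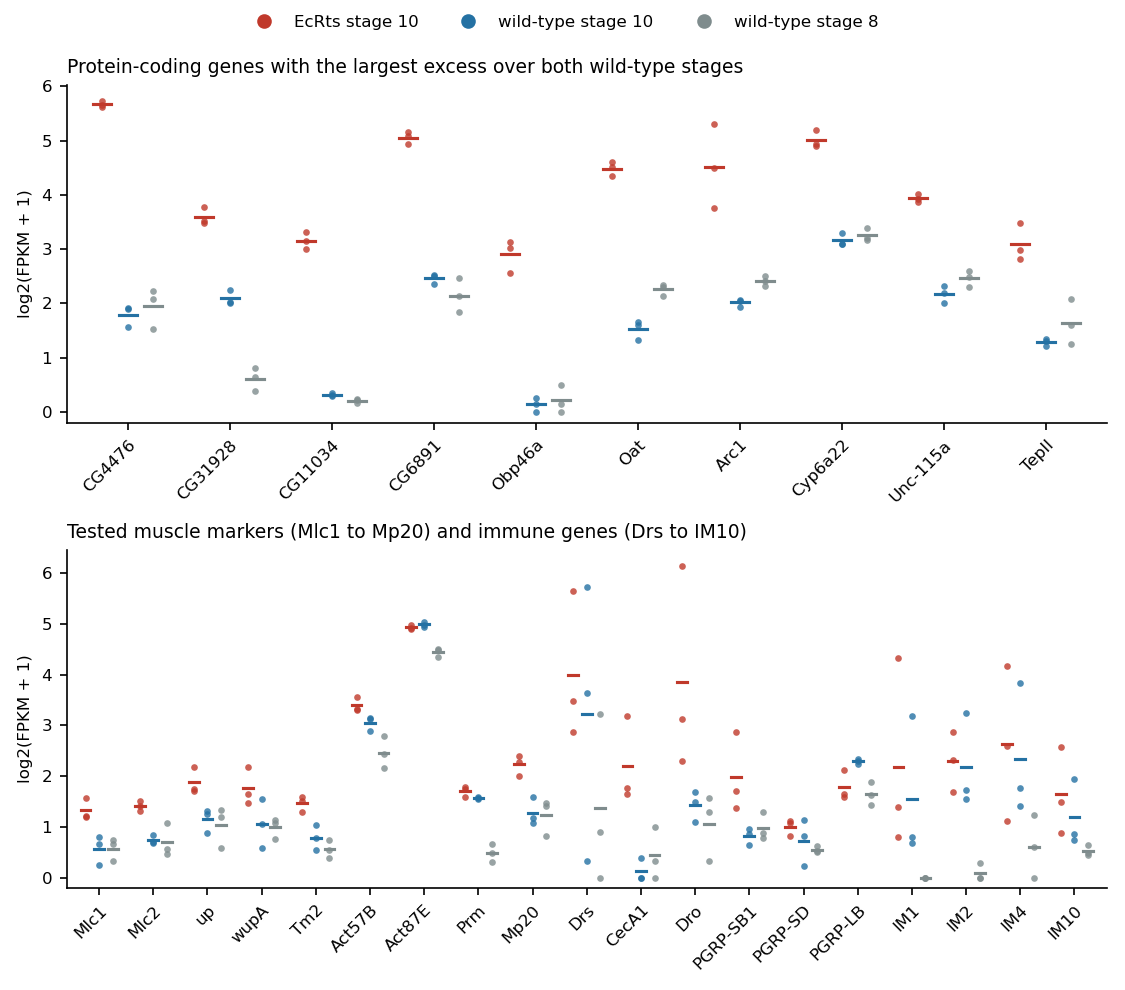
Upper panel, the 10 protein-coding genes with the largest excess over both wild-type stages; lower panel, the 9 tested muscle markers followed by the 10 tested immune genes. The axis is log2(FPKM + 1), points are libraries and bars are means of 3, for EcRts stage 10, wild-type stage 10 and wild-type stage 8. EcRts libraries lie above all wild-type libraries for the 10 upper genes, while immune genes such as Dro are high in 1 EcRts library.

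Markers of other tissues moved with these genes in part. Of 17 muscle markers, 9 were tested and all 9 rose over wild-type stage 8 (8 with median-of-ratios scaling, 7 without EcRts replicate 2), where 39.8% of all tested genes did. Of these 9, 5 were above both stages, where 5.71% of all tested genes were. The summed FPKM of all 17 was 57.3 to 64.0 in EcRts follicles, 46.0 to 50.5 in wild-type stage 10 and 30.3 to 37.2 in wild-type stage 8, most of it from the actin genes Act87E and Act57B. The defining muscle gene Mhc was low, at 0.862, 1.46 and 0.863 FPKM in EcRts follicles, 0.649, 0.433 and 0.428 in wild-type stage 10 and 0.655, 0.364 and 0.217 in wild-type stage 8, and sls and bt were under 1 FPKM everywhere. Of 21 immune peptide genes 10 were tested and 4 rose (3 without EcRts replicate 1, 7 without EcRts replicate 2), a share near the 39.8% of all tested genes. Of the 10 tested, 2 were above both stages, where 5.71% of all tested genes were. That count was 1 with median-of-ratios scaling or quantile normalization and 3 with scaling to protein-coding genes. The summed FPKM of all 21 was 25.7 to 285 in EcRts follicles, 14.5 to 67.9 in wild-type stage 10 and 6.05 to 19.7 in wild-type stage 8. The antimicrobial peptide gene Dro had 69.8, 3.91 and 7.71 FPKM in EcRts follicles, 2.23, 1.8 and 1.15 in wild-type stage 10 and 0.254, 1.45 and 1.97 in wild-type stage 8. EcRts replicate 1 carried most of the signal. Its rise of 2.79 (adjusted p = 0.0236) became 1.65 without EcRts replicate 1 and 3.57 without replicate 2, and was lost without stage 8 replicate 1 (adjusted p = 0.0717). The part of muscle RNA or of an immune state in the genes above both stages was not tested.

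Markers of other cell types gave few calls. Of 9 fat body markers 3 were tested and 0 passed (2 rose with scaling to protein-coding genes), with sums of 28.11 to 44.4 FPKM in EcRts follicles, 36.8 to 44.8 FPKM in wild-type stage 10 and 24.4 to 112 FPKM in wild-type stage 8. Stage 8 replicate 2 gave the top of that range through the digestive enzyme genes tobi and Amy-p, at 28.4 and 60.4 FPKM. The hemocyte genes Hml, eater and He were at or near 0 in all libraries, and of the 2 tested hemocyte markers only the scavenger receptor gene crq rose (0.37, adjusted p = 0.000553). All 10 hemocyte markers summed to 72.1 to 81.8 FPKM in EcRts follicles, 112 to 117 FPKM in wild-type stage 10 and 56.6 to 63.3 FPKM in wild-type stage 8. Of 7 neuron markers 1 was tested and 0 passed, and of 7 germarium markers 2 were tested, with bam up by 1.42 and stwl down by 0.85 (adjusted p = 4.43e-05 and 9.3e-05). Of the 2 tested oviduct and spermatheca markers, Hr39 rose and dsx fell (0.54 and -0.45, adjusted p = 0.000455 and 0.0235; the dsx call was lost without EcRts replicate 1 or 3 or wild-type stage 8 replicate 3, adjusted p up to 0.0826), and Send1 was at 0 in EcRts and wild-type stage 8 libraries.

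Heat-inducible chaperones fell furthest. Of 23 tested heat shock and chaperone genes, 15 fell and 2 rose against wild-type stage 8 (median -0.85), where 21.6% and 39.8% of all tested genes did. In wild-type stage 10, 12 were higher and 3 lower than at stage 8 (median 0.51), where 49.2% and 18.9% of all tested genes were. With median-of-ratios scaling these wild-type counts were 6 and 4, where 31.1% and 32.0% of all tested genes were. In EcRts follicles 14 of the 23 lay below both wild-type stages, where 8.28% of all tested genes did. The 23 include 6 near-identical Hsp70 copies. Hsp68 had 1.76, 2.77 and 2.62 FPKM in EcRts follicles, 318, 368 and 321 in wild-type stage 10 and 236, 139 and 298 in wild-type stage 8. Every EcRts library lay far under every wild-type library, and Hsp68 fell by 6.00 ± 0.26 (SE) against stage 8 and lay 6.65 below wild-type stage 10 on the log2 scale (adjusted p = 5.64e-06 and 2.88e-06). Hsp70Bb (FBgn0013278, chromosome 3R, 8331515 to 8334105) had 0.630, 0.845 and 0.718 FPKM in EcRts follicles, 196, 204 and 209 in wild-type stage 10 and 162, 89.9 and 168 in wild-type stage 8. The 6 Hsp70 copies, at 2 places on chromosome 3R, fell by 5.13 to 6.30 against stage 8, and since they are near-identical their single values are uncertain. The copy Hsp70Aa had 4.43, 5.81 and 5.00 FPKM in EcRts follicles, against 276, 322 and 289 in wild-type stage 10 and 239.7, 145 and 274 in wild-type stage 8.

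Smaller chaperones split by gene. Hsp67Bc had 0.215, 0.296 and 0.236 FPKM in EcRts follicles, 41.6, 45.0 and 37.2 in wild-type stage 10 and 63.3, 35.5 and 75.3 in wild-type stage 8. Hsp22 had 10.2, 10.2 and 10.8 FPKM in EcRts follicles, 296, 355 and 292 in wild-type stage 10 and 150.5, 73.5 and 267 in wild-type stage 8 (-5.50 and -3.67, adjusted p = 5.67e-06 and 0.000118). The deposited status of Hsp22 was low data in all 9 libraries, so its values are less certain. Hsp23, Hsp26 and Hsp27, which are also expressed during normal oogenesis, did not pass against stage 8 (-0.23, -0.01 and 0.19, adjusted p = 0.648, 0.968 and 0.314). Against wild-type stage 10 these same genes were lower by 1.86, 1.22 and 0.92 (adjusted p = 0.0082, 0.00117 and 0.00241). The co-chaperone gene stv was below both stages, with 1.58, 1.13 and 1.58 FPKM in EcRts follicles, 25.3, 29.7 and 25.2 in wild-type stage 10 and 11.2, 10.7 and 12.3 in wild-type stage 8. So was DnaJ-1, with 139, 137 and 138 FPKM in EcRts follicles, 354, 417 and 375 in wild-type stage 10 and 322, 233 and 401 in wild-type stage 8. Hsf, the transcription factor gene of the heat shock response, and the Hsp90 co-chaperone gene Hop rose (0.34 and 0.47, adjusted p = 0.000175 and 0.00247). Stage 8 replicate 2 was the lowest wild-type library for Hsp68, the Hsp70 copies, Hsp67Bc and Hsp22, and the EcRts libraries were lower still. Temperature and genotype differ together here, so their parts in the low values cannot be told apart.

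**Figure D5:**
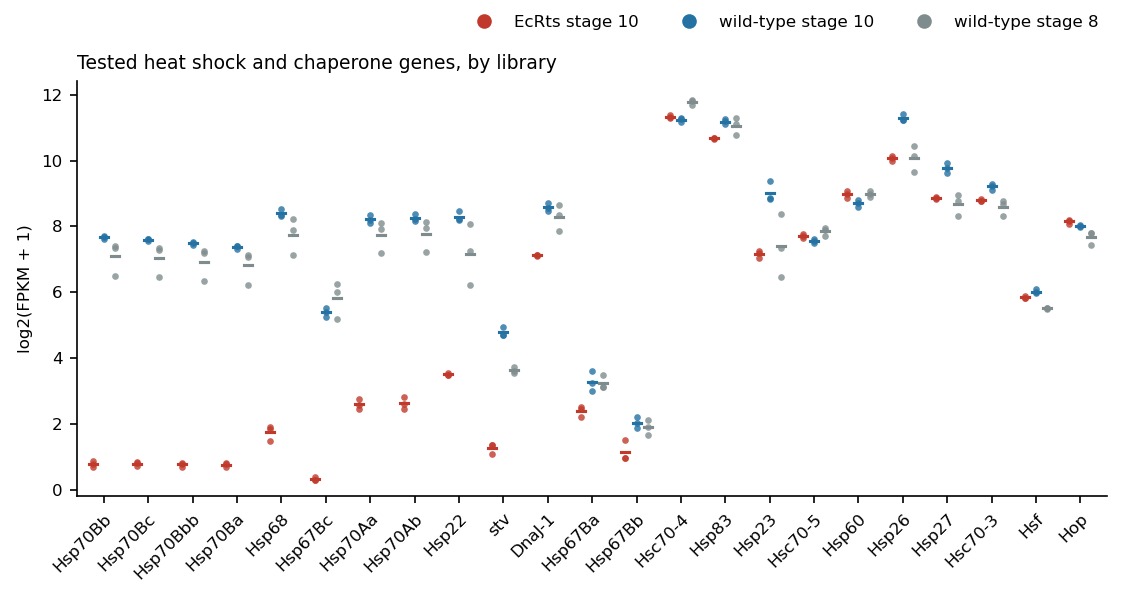
Log2(FPKM + 1) of the 23 tested heat shock and chaperone genes in each library, ordered by the change of EcRts stage 10 against wild-type stage 8. Points are libraries and bars are means of 3, for EcRts stage 10, wild-type stage 10 and wild-type stage 8. Hsp70 copies, Hsp68 and Hsp67Bc lie under 3 in EcRts follicles and above 5 in both wild-type groups, while Hsp60, Hsp26 and Hsp27 in EcRts lie within or near the stage 8 values.

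Stress-linked noncoding RNAs were also below both stages. Hsromega, a long nuclear RNA that heat induces, averaged 31.9 ± 2.43 FPKM in EcRts follicles, 134 ± 13.6 FPKM in wild-type stage 10 and 113 ± 39.1 FPKM in wild-type stage 8 (SD, n = 3 each), and alphagamma-element:CR32865, an RNA of the Hsp70 region, averaged 0.352 ± 0.135 FPKM in EcRts follicles, 102 ± 13.2 FPKM in wild-type stage 10 and 61.9 ± 23.6 FPKM in wild-type stage 8. Their differences from stage 8 were -1.74 and -5.48 (adjusted p = 0.000224 and 5.58e-06).

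Single genes of several functions stood below both stages as well. Thor, the 4E-BP gene that holds back translation when insulin signalling is low, had 24.5, 18.3 and 28.3 FPKM in EcRts follicles, 75.5, 63.5 and 76.3 in wild-type stage 10 and 136, 176 and 161 in wild-type stage 8 (-2.69, adjusted p = 1.69e-05, and -1.57, adjusted p = 0.000328). Obp99a, another odorant-binding protein gene, had 13.5, 3.71 and 5.17 FPKM in EcRts follicles, 36.1, 23.9 and 30.6 in wild-type stage 10 and 53.6, 38.7 and 55.7 in wild-type stage 8 (-2.73, adjusted p = 0.000498). The cytochrome P450 gene Cyp6a13 had 1.38, 1.75 and 1.82 FPKM in EcRts follicles, 8.55, 7.14 and 8.33 in wild-type stage 10 and 12.0, 10.0 and 8.97 in wild-type stage 8 (-2.09, adjusted p = 1.62e-05). The glutathione transferase genes GstD2 and GstE3 fell by 1.29 and 0.79 (adjusted p = 0.0034 and 0.0059), while GstD1, the most abundant of that family here, rose by 0.61 (adjusted p = 5.94e-05). GstE14, listed as CG4688 and needed for ecdysteroid synthesis, was below both stages and averaged 1.28 ± 0.212 FPKM in EcRts follicles, 3.71 ± 0.405 FPKM in wild-type stage 10 and 6.78 ± 1.42 FPKM in wild-type stage 8 (SD, n = 3 each). Over all 28 tested oxidative stress and detoxification genes 8 rose and 6 fell (6 and 8 with median-of-ratios scaling), and 5 were below both stages. Among all tested genes, 39.8% rose, 21.6% fell and 8.28% were below both stages.

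Growth and death pathways were mixed. Of 19 tested insulin and TOR genes, 7 rose and 7 fell, where 39.8% and 21.6% of all tested genes did. These counts were 4 and 9 with median-of-ratios scaling, and 9 and 5 with scaling to protein-coding genes. The insulin-like peptide gene Ilp6 had 2.41, 3.41 and 3.00 FPKM in EcRts follicles, 2.91, 2.63 and 2.83 in wild-type stage 10 and 8.78, 12.8 and 7.58 in wild-type stage 8. Its EcRts range overlapped wild-type stage 10 (-1.42 against stage 8, adjusted p = 0.000248). The gene chico, for the insulin receptor substrate, was below both, at 10.3, 10.2 and 10.8 FPKM in EcRts follicles, 15.0, 14.5 and 13.7 in wild-type stage 10 and 17.0, 18.3 and 17.8 in wild-type stage 8. Of 20 tested apoptosis and autophagy genes, 7 rose and 6 fell (4 and 7 with median-of-ratios scaling or quantile normalization). In wild-type stage 10, 11 were higher and 1 lower, where 49.2% and 18.9% of all tested genes were. These wild-type counts were 6 and 4 with median-of-ratios scaling and 6 and 5 with quantile normalization. The caspase genes Dronc, listed as Nc, and Ice rose by 0.62 and 0.54 (adjusted p = 2.11e-05 and 7.26e-05), while Strica, listed as dream, fell by 0.76 (adjusted p = 0.00058).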

How the data were processed

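RNA-seq gene tables of 9 libraries were used. The authors' deposited values are FPKM per gene, made with CASAVA 1.8.2, Bowtie2 2.0.6, TopHat2 2.0.7 and Cufflinks 2.02 on dm3, per the submitters' processing notes. The sources used here give no annotation release, strand setting or read counts, so overlapping genes cannot be told apart and depth is only implied by the deposited confidence limits. Tables were joined on gene ID, and 14926 of 15602 IDs matched the later FlyBase gene annotation used for gene types. Date-damaged symbols, 5 in number, were restored. Genes with a failed estimate in any library, 130 in number, were left out. Genes reaching 1 FPKM in 3 or more libraries were tested on log2(FPKM + 1) with limma 3.58.1 (trend, 1 mean per group, 9 libraries, 6 residual degrees of freedom), with Benjamini-Hochberg adjustment over all 8238 tested genes and a threshold of 0.05, two-sided. Fold changes on this scale understate those of low genes, and unlabelled differences in parentheses are on it. R 4.3.3, Python 3.11.15, pandas 2.3.3, numpy 2.4.6 and matplotlib 3.10.9 were used, and the fit was tested on simulated data.

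The text names, by rule, the 10 largest changes in each direction against wild-type stage 8, the 10 largest from wild-type stage 8 to wild-type stage 10, the 10 furthest above and below both, and up to 4 genes per list. For these the adjusted p was under 0.05 and the higher group averaged 5 FPKM or more, and outside the lists they were protein-coding with groups that did not overlap. EcR and usp were named whatever their values. Of the 41 lists, 795 members matched and 10 did not. The members and lists were chosen with earlier results of these data known. Named outside the rule, after their values were seen, were clos, fs(1)N, fs(1)M3, Cp18, Yp2, yl, HLH106, SCAP, CG3523, ACC, bmm, Eip74EF, Hr4, dib, mt:ND2, PH4alphaEFB, Idgf2, Mhc, dsx, Hsp23, Hsp26, Hsp27, DnaJ-1, Hsf, Hop, Hsromega, alphagamma-element:CR32865, Obp99a and CG4688.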

Additional observations from a re-analysis of the deposited data

How the results depend on the processing

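Other settings were a pseudocount of 0.1 or 5, no filter, 4 other scalings, a fit to the compared groups alone, a replicate block and leaving out each library. Keeping failed estimates that have a value and scaling without scaffold noncoding genes were added after seeing the data. Over the 6 counts of genes, 114 values stayed within 1.5 times and 6 did not. With a pseudocount of 0.1, 335 genes were at least 2-fold lower than wild-type stage 8 and 112 below both stages. With a pseudocount of 5, 202 were at least 2-fold higher, 89 at least 2-fold lower, 76 above both and 26 below both. Without 1 library, 2837 to 3285 genes were higher and 1576 to 1790 lower than stage 8, 383 to 501 at least 2-fold higher and 197 to 220 at least 2-fold lower, 123 to 162 above both and 57 to 63 below both. Of the values of named genes against wild-type stage 8, 3369 kept their call, 26 lost it, 2 gained it and 3 reversed: EcR at -0.03 (median-of-ratios scaling) and -0.09 (quantile normalization), and CG1746 at 0.13 (quantile normalization). The cause was not tested. Calls against wild-type stage 10 were less stable. Of 107 such calls, 45 were lost in 1 or more settings, 31 of them with scaling to protein-coding genes, 23 with quantile normalization, 21 with median-of-ratios scaling and 1 to 16 without 1 library, Cg25C (14 settings), thr (12), sn, Tpi (11), Rpn3 and Vm32E (10) most often. Same-numbered EcRts and wild-type stage 8 libraries deviated together with correlations of 0.23, -0.039 and 0.085, so the numbers were not taken as pairs. With the replicate block 3153 genes were higher and 1724 lower, 461 and 215 of them beyond 2-fold, 59 were below both stages, and 169 of 170 named genes kept their call against wild-type stage 8. CG42565 lost it (adjusted p = 0.074). Against wild-type stage 10, 9 of 107 calls were lost with the block, those of CG3812, Gapdh2, thr, dhd, Cg25C, Ilp8, Fib, RpI135 and Rpn3 (adjusted p = 0.0518 to 0.07). For low genes the unit and the pseudocount limit what the fold changes show.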

Other observations

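Metabolic genes were also among those at least 2-fold above both wild-type stages, chosen here after their values were seen. The gene cn, for kynurenine 3-monooxygenase of the eye pigment pathway, had 1.74, 2.42 and 2.69 FPKM in EcRts follicles, 0.0895, 0.108 and 0.259 FPKM in wild-type stage 10 and 0.183, 0.240 and 0.203 FPKM in wild-type stage 8 (1.43, limma adjusted p = 0.000139). The gene pyd3, for an enzyme of pyrimidine breakdown, had 7.33, 4.72 and 4.74 FPKM in EcRts follicles, 1.67, 2.19 and 2.36 FPKM in wild-type stage 10 and 2.64, 1.07 and 1.10 FPKM in wild-type stage 8 (1.37, adjusted p = 0.00183). The cytochrome P450 gene Cyp6a17 had 4.10, 2.44 and 2.67 FPKM in EcRts follicles, 0.274, 0.296 and 0.316 FPKM in wild-type stage 10 and 0.162, 0.322 and 0.131 FPKM in wild-type stage 8 (1.74, adjusted p = 9.45e-05). At least 2-fold below both stages stood Parp, for the poly(ADP-ribose) polymerase of chromatin, with 23.9, 26.1 and 28.2 FPKM in EcRts follicles, 81.0, 79.4 and 95.0 FPKM in wild-type stage 10 and 55.1, 50.0 and 62.9 FPKM in wild-type stage 8 (-1.07, adjusted p = 8.13e-05). All 4 genes had EcRts libraries outside the range of the 6 wild-type libraries. They were chosen for lying outside both stages, so this is a description. The genes cn and Cyp6a17 were under 1 FPKM in every wild-type library and passed the filter through the EcRts libraries alone.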
